A study of Mus musculus with 36 samples.

Results

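The genes described here are 10 mouse genes of the germ line, namely Sycp3, Sycp1, Hormad1, Dazl, Ddx4, Mael, Asz1, Slc25a31, Stk31 and Tex101. They were chosen by name, as genes known to be kept silent by promoter methylation outside the germ line, and are 10 of the 20807 autosomal protein-coding genes annotated. For each gene, methylation was taken from CpGs within 1 kb of any annotated transcription start, called the promoter here, and from the remaining CpGs of the gene body. 8 of the 10 promoters, with 199 CpGs together, and 2 of the 10 gene bodies held at least 3 CpGs read at least 5 times in every embryo compared. Asz1 and Stk31 did not reach this at their promoters, and their values are given from fewer embryos or from each embryo's own CpGs.

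Brains of 36 individual E11.5 mouse embryos, dissected from forebrain to hindbrain, were profiled separately by oxidative bisulfite RRBS, which reads 5-methylcytosine alone at CpGs near MspI and TaqI sites. All embryos were of the 129S6.cg Tet1<tm1Koh> line and carried on neither (WT), on one (HET) or on both Tet1 alleles (KO) an insertion at the first coding ATG, which removes the full-length transcript product. Per the study, a transcript of a short isoform remains in KO brains, and neither protein was detected by Western blot in WT or KO brains at this stage. For at least 4 weeks dams were fed folic acid (FA) in excess at 30 ppm, at a control content of 3 ppm, or depleted to 0.1 ppm, all 3 diets containing succinylsulfathiazole, and gave 4 litters per diet. By the deposited labels there were 3 WT, 5 HET and 6 KO embryos on 30 ppm, of which the study lists KO replicate 1 as HET. On 3 ppm there were 4 WT, 3 HET and 5 KO, and on 0.1 ppm 2 WT, 3 HET and 5 KO. HET replicate 2 of 0.1 ppm, the shallowest library, was left out. The 35 embryos compared were thus 9 WT, 10 HET and 16 KO. KO embryos were labelled norm (7), NTD for neural tube defect (5) or inHB (4), given as brain malformation in the study's sample list. WT replicate 2 of 0.1 ppm and HET replicates 3 and 4 of 30 ppm were also labelled inHB, and the other WT and HET embryos norm. Malformed embryos were thus more frequent in KO, and phenotype entered no test as a covariate.

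Libraries held between 23.2 and 197 M CpG calls (M is 1000000), with a mean coverage of 10.9 to 61.5 reads per listed CpG. At an intronic CpG of Tet1 (position 62884019 of chromosome 10, mm10), 7 WT libraries read 0 to 7.32%, 10 HET libraries 8.33 to 69.2% and 15 KO libraries 69.6 to 100%. The other 3 libraries went against their label there. They had been set apart beforehand, with earlier results of these data known. This CpG was then chosen as the one that best divided the remaining KO and WT libraries. The clean division of those libraries follows from that choice and is no test of their labels. These were WT replicate 2 of 30 ppm and WT replicate 2 of 0.1 ppm, which read between 36.36 and 40.0%, and KO replicate 1 of 30 ppm, which read 45%. The study's sample list names this KO embryo as HET and gives the WT embryos as WT. All stayed in the groups of their labels, and the main differences at Sycp3, Ddx4, Mael and Tex101 are given with and without them. The values without them rest on a choice made with these data and are no independent support. No RNA was measured in these libraries, so whether the genes were silent was not tested. A methylation level of a whole brain is a share of molecules, and a change in some cells cannot be told apart from a change on some alleles of every cell.

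Genes of meiosis and of the germ cell RNA machinery are transcribed in germ cells and, at most weakly, in the soma. Many have CpG-rich promoters that, unlike most such promoters, gain dense methylation around implantation, when DNMT3B acts together with a PRC1.6 complex whose E2F6 and MGA subunits recognise sites in these promoters. The methylation is erased in primordial germ cells, where TET1 is known to be needed for activation of meiotic genes. TET1 oxidises 5-methylcytosine and so favours its removal.

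The promoters can be read in the sequences themselves (mm10, in the direction of transcription). In all but Asz1, capitals mark the CpGs read at least 5 times in all 35 embryos, and in Asz1 those so read in at least 25 embryos. Sycp3 is shown because it was the member called between genotypes over all diets, from 97 to 396 bases after its first start (chr10:88459666-88459965, plus strand, running from coding sequence of an exon into an intron), with 8 of 18 CpGs in capitals. Dazl is shown from 380 to 679 bases after its first start (chr17:50292957-50293256, minus strand, intronic), because its methylation ends within this run, with 25 of 28 CpGs in capitals. Ddx4 is shown for a stretch of its first exon (chr13:112652322-112652351, minus strand) with 5 of its 16 CpGs. Hormad1 is shown for the 300 bases before its first start (chr3:95559377-95559676, plus strand), as a densely methylated promoter at which no difference passed the test, with 13 of 19 CpGs in capitals. Asz1 is shown for the 100 bases before its first start (chr6:18109062-18109161, minus strand), because its eighth CpG was read almost always as unmethylated between methylated neighbours. The letters are those of mm10, and whether the strain of these embryos holds a CpG at that position was not tested.
Sycp3: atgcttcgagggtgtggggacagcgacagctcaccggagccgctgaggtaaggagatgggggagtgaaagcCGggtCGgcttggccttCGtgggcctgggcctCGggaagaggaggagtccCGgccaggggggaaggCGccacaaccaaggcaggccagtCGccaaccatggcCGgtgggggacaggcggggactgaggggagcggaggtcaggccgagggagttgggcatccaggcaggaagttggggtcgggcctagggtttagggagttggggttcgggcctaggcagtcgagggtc
Dazl: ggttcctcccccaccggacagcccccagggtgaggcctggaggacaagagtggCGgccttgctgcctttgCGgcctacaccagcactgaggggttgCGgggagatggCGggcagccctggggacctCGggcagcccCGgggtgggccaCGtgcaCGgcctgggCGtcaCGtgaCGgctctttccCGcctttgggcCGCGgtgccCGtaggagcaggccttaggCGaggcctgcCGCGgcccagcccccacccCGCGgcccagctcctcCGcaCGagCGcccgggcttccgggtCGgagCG
Ddx4: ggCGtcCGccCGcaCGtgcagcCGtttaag
Hormad1: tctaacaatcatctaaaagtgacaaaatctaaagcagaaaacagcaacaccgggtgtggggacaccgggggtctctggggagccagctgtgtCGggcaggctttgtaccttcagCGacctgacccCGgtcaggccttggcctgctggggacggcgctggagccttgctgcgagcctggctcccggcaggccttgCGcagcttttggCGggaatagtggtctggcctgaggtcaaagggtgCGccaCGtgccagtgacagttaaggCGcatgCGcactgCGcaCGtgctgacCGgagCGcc
Asz1: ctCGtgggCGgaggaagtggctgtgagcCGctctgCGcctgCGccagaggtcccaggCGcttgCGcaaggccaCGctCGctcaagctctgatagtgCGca

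Promoters of all 10 genes were found in the RefSeq table of mm10, 12 in all, each running from 250 bases before a start to 50 after it. They held 15 to 38 CpGs (median 23 with the first listed promoter of each gene), where the median of 32851 RefSeq promoters was 7. The ratio of observed to expected CpGs was 0.666 to 0.978 (median 0.789, taken in the same way), against a median of 0.384 over all RefSeq promoters. The letters TCCCGC, the core of an E2F6 site, stood on either strand in the promoters of 6 of the 10 genes and in 20% of all promoters. The E-box CACGTG, which reads the same on both strands, stood in 7 of the 10 genes and in 7.15% of all. The motifs can share no more than an outer letter, and each was counted where it stood. Asz1, Tex101 and Dazl had neither in this window. The Dazl run printed above, which lies downstream of it, held the E-box 2 times and TCCCGC 1 time. In the RefSeq window, Stk31 had the E-box alone, and Sycp3, Sycp1, Hormad1, Ddx4, Mael and Slc25a31 had both. Both motifs contain a CpG, and the promoters of the members hold more CpGs than most. The shares of all promoters were not matched for CpG content and count promoters, where the members were counted as genes. Whether the motifs are more frequent than in promoters as rich in CpGs was not tested. A match of letters is a description and shows no binding.

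In WT brain the 8 readable promoters were more methylated than most promoters of the genome. Of 13963 promoters with at least 3 shared CpGs, 86.1% were under 20% methylated in WT embryos, 9.68% lay from 20 to 80% and 4.19% were over 80%, with a median of 1.36%. None of the 8 members was under 20%, 3 lay between and 5 were over 80%, and their median was 82.9%. The promoters of 11 of 12 neural genes that could be read had 0.506 to 1.17% (the highest was Pax6), and those of 14 of 15 housekeeping genes 0.501 to 8.02% (the highest was Actb). The label of methylated germline genes therefore held in these libraries for the CpGs read at 7 of the 8 promoters, while Dazl was methylated over a part of its promoter only. As the members were chosen with earlier results of these data known, this is a description and no independent test of the label. Dazl was read at 68 of 117 listed promoter CpGs, Slc25a31 at 35 of 46 and Hormad1 at 20 of 29. Sycp3 was read at 8 of 50, Ddx4 at 16 of 46 and Sycp1 at 13 of 84, where an unmethylated part could have gone unseen.

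Of the genes of meiotic chromosome structure, Sycp1 (chr3:102818499-102936100), which encodes the transverse filament of the synaptonemal complex, had the highest level, 90.5% ± 1.48 in WT embryos (SD, n = 9) over 13 CpGs from 91 bases before to 627 after its first start. Hormad1 (chr3:95559677-95587671), a protein of the meiotic chromosome axis, had 83.9% ± 1.93 over 20 CpGs. Sycp3 (chr10:88459569-88473236), a protein of the lateral element, had 57.01% ± 9.00 over 8 CpGs, all of them in an intron from 168 to 270 bases after its first start. The spread of Sycp3 between WT embryos was thus the widest of the 8, and it also had the fewest reads summed over its CpGs, 65 to 813 per embryo.

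The RNA-binding proteins differed from each other. Ddx4 (chr13:112598333-112652475), the germ cell RNA helicase homologous to Vasa, had 64.0% ± 5.46 in WT over 16 CpGs, all of them exonic and 76 to 194 bases after the first start. Dazl (chr17:50279395-50293636), which binds and regulates germ cell mRNAs, had the lowest level of the members, 35.5% ± 3.33 over 68 CpGs from 509 bases before to 771 after its first start. That mean joins methylated and unmethylated CpGs, which are described below.

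Of the genes of the piRNA pathway, which silences transposons in germ cells, Mael (chr1:166201201-166238747) had 84.1% ± 3.63 in WT over 27 CpGs. Asz1 (chr6:18050964-18109061), a protein of the germ cell mitochondrial surface, was read on 4 to 16 CpGs of its promoter depending on the embryo, and had 88.2% ± 1.69 in 9 WT, 86.6% ± 2.04 in 10 HET and 89.6% ± 3.02 in 16 KO embryos. These Asz1 values come from differing CpGs and were not tested. In 34 libraries they include the CpG 26 bases before the start, almost always read as unmethylated, which lowers them. The other CpGs read in most libraries averaged 88.3 to 98.3% in WT.

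The remaining genes are active in testis. Tex101 (chr7:24668007-24676675), a glycoprotein of the sperm cell surface, had 88.9% ± 2.34 in WT over 12 CpGs, all near its second start and none near the first. Slc25a31 (chr3:40708855-40726096), the ADP/ATP carrier of male germ cells, had 81.8% ± 3.72 over 35 CpGs. Stk31 (chr6:49395604-49469501), a tudor domain protein with a kinase-like domain, had at least 3 promoter CpGs in 9 of the 35 embryos, with 65.5 to 88.6% and a median of 74.3%.

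In the order of WT levels, Sycp1 was followed by Tex101, Mael, Hormad1, Slc25a31, Ddx4, Sycp3 and Dazl. Sycp1 and Tex101, Mael and Hormad1, Hormad1 and Slc25a31, and Ddx4 and Sycp3 were neighbours whose means differed by less than the larger of their SDs. Tex101 and Mael, Slc25a31 and Ddx4, and Sycp3 and Dazl were farther apart than their SDs.

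**Figure D1:**
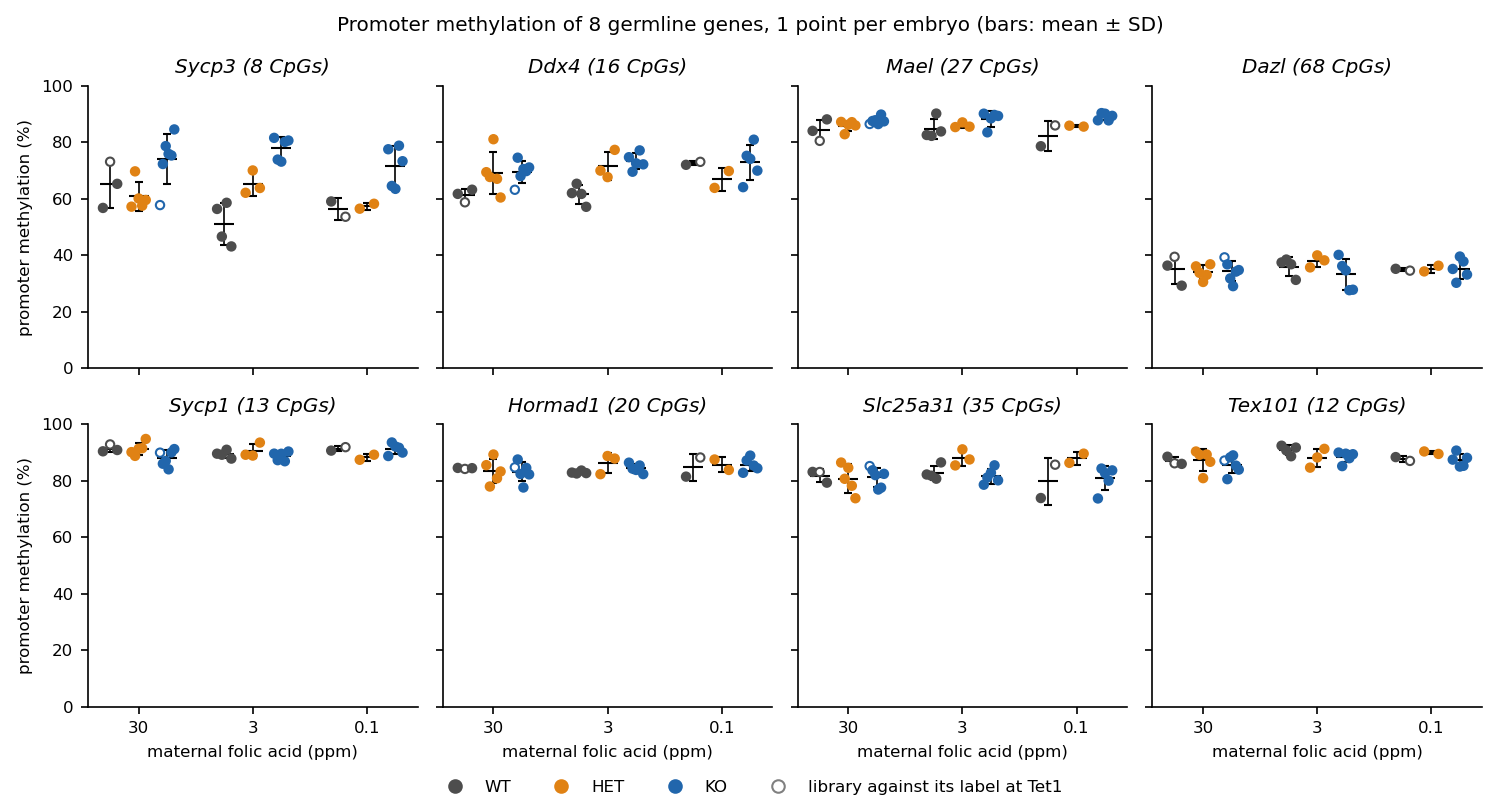
Promoter methylation (%, y axis) of the 8 readable genes by maternal folic acid (ppm, x axis) and genotype, with 1 point per embryo, bars for mean ± SD and open circles for the 3 libraries against their label at Tet1. KO points of Sycp3 lie above the WT points on 3 and 0.1 ppm, while for Sycp1, Hormad1, Slc25a31, Tex101 and Dazl the genotypes overlap.

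KO embryos had higher methylation than WT embryos at Sycp3, and by less at Ddx4 and Mael, and at the other 5 promoters no difference passed the test with all libraries. With diet as a covariate, the KO minus WT difference was +17.8 percentage points at Sycp3 (SE 3.02, adjusted p = 6.63e-07 by the quasi-binomial test across all promoters), +7.78 at Ddx4 (SE 2.16, adjusted p = 5.58e-04) and +4.28 at Mael (SE 0.99, adjusted p = 4.04e-06). A call required an adjusted p under 0.05 together with a difference of at least 10 points, and Sycp3 was thus the member called, 1 of 8. Of all 3887 promoters tested, 16.1% were called, all of them higher in KO. By p alone 3 of the 8 members passed, where 56% of all promoters did. The median difference was 0.08 points over the members and 3.63 over all promoters, and 4 of 8 members were higher in KO, against 92.4% of all.

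Sycp3 was read in WT embryos at 56.8, 73.2 and 65.4% on 30 ppm, at 56.5, 46.7, 58.6 and 43.2% on 3 ppm, and at 59.1 and 53.7% on 0.1 ppm. KO embryos on 30 ppm read 57.8 to 84.6% (median 75.7%), those on 3 ppm 81.6, 73.9, 73.2, 80.2 and 80.7%, and those on 0.1 ppm 77.6, 64.6, 63.6, 78.9 and 73.4%. The value of 12 among 16 KO embryos exceeded that of each WT embryo, and the highest WT and the lowest KO value, 73.2% and 57.8%, came from libraries against their label. Without KO replicate 1 of 30 ppm alone, the difference at Sycp3 was +19.0 points (adjusted p = 2.62e-08). Without the 3 libraries it was +21.2 points (adjusted p = 3.88e-09 by the quasi-binomial test) with 13 of 15 KO values higher than all those of WT. Leaving them out removed the highest WT and the lowest KO value, which by itself widens the difference. HET embryos read 57.26, 69.8, 60.2, 57.6 and 59.6% on 30 ppm, 62.2, 70.1 and 63.9% on 3 ppm, and 56.6 and 58.3% on 0.1 ppm. They lay near the WT embryos on 30 and 0.1 ppm and between the genotypes on 3 ppm. All 8 CpGs of the Sycp3 run shown above were higher in KO, by 13.8 to 20.4 points. The median embryo had 176 reads summed over these 8 CpGs, and each CpG alone had a median of 17 to 30. A molecule spanning several CpGs is counted at each of them. The 95% Wilson interval, 13.6 points wide, takes these counts as independent and so understates the counting error, which is a part of the spread between embryos.

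Ddx4 was read in WT embryos at 61.8, 58.8 and 63.3% on 30 ppm, at 62.1, 65.4, 61.8 and 57.2% on 3 ppm, and at 72.1 and 73.1% on 0.1 ppm. KO embryos read 63.3 to 74.6% on 30 ppm (median 70.2%), 74.8, 69.6, 72.6, 77.2 and 72.3% on 3 ppm, and 64.2, 75.3, 74.2, 81.0 and 70.0% on 0.1 ppm. On 3 ppm the KO embryos all lay above the WT embryos, on 30 ppm 5 of 6 did, and on 0.1 ppm the groups overlapped. HET embryos read 69.5, 67.8, 81.2, 67.1 and 60.5% on 30 ppm, 70.0, 67.7 and 77.4% on 3 ppm, and 63.9 and 69.9% on 0.1 ppm. The HET level of Ddx4 over all diets, 69.5% ± 5.98 (SD, n = 10), was thus nearer to that of KO (71.8% ± 4.53, n = 16) than to that of WT. KO was higher at 16 of the 16 CpGs of Ddx4, by 2.46 to 14.0 points. Without the 3 libraries the KO minus WT difference was +8.97 points.

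Mael moved within a narrow range near the top of the scale. WT embryos read 84.1, 80.6 and 88.2% on 30 ppm, 82.7, 82.3, 90.2 and 83.9% on 3 ppm, and 78.7 and 86.0% on 0.1 ppm, and HET embryos 82.9 to 87.3% over all diets. KO embryos read 86.5 to 89.9% on 30 ppm (median 87.5%), 90.2, 83.6, 88.5, 89.7 and 89.4% on 3 ppm, and 87.9, 90.4, 90.2, 87.8 and 89.4% on 0.1 ppm. A single KO embryo of 16 exceeded every WT embryo, while KO was higher at 26 of the 27 CpGs of Mael. Without the 3 libraries the difference was +4.23 points.

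At the other 5 promoters no difference between KO and WT passed the test with all libraries. The differences were -1.12 points at Dazl (SE 1.52), -1.38 at Sycp1 (SE 0.93), +0.47 at Hormad1 (SE 1.18), -0.31 at Slc25a31 (SE 1.68) and -1.60 at Tex101 (SE 1.08), with adjusted p between 0.0941 and 0.973. Tex101 had the lowest of these p, and leaving out the 3 libraries against their label gave it -2.20 points, lower in KO, with an adjusted p of 0.0246, still under the minimum for a call. Hormad1, whose run is printed above, read 77.6 to 88.9% in KO and 81.5 to 88.3% in WT embryos. The SEs ran from 0.93 to 1.68 points, where a call requires 10 points. A rise of that size had no room at Sycp1, at 90.5% in WT, and little at Tex101, at 88.9%. The missing call of a rise there was thus largely set by the level.

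The share of promoters called depended on the level. Of promoters with a mean level from 20 to 80%, 30.2% were called, against 9.33% of those under 20% and 3.66% of those over 80%. Among the members 1 of 3 between 20 and 80% was called, and 0 of 5 over 80%, where 3.66% of all were. The median difference of the 5 members over 80% was -0.31 points, and that of all promoters over 80% was 2.77. For the 3 members between 20 and 80% it was 7.78, against 5.08 for all. With so few members these values are a description, and nothing particular to the members is shown by them.

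**Figure D2:**
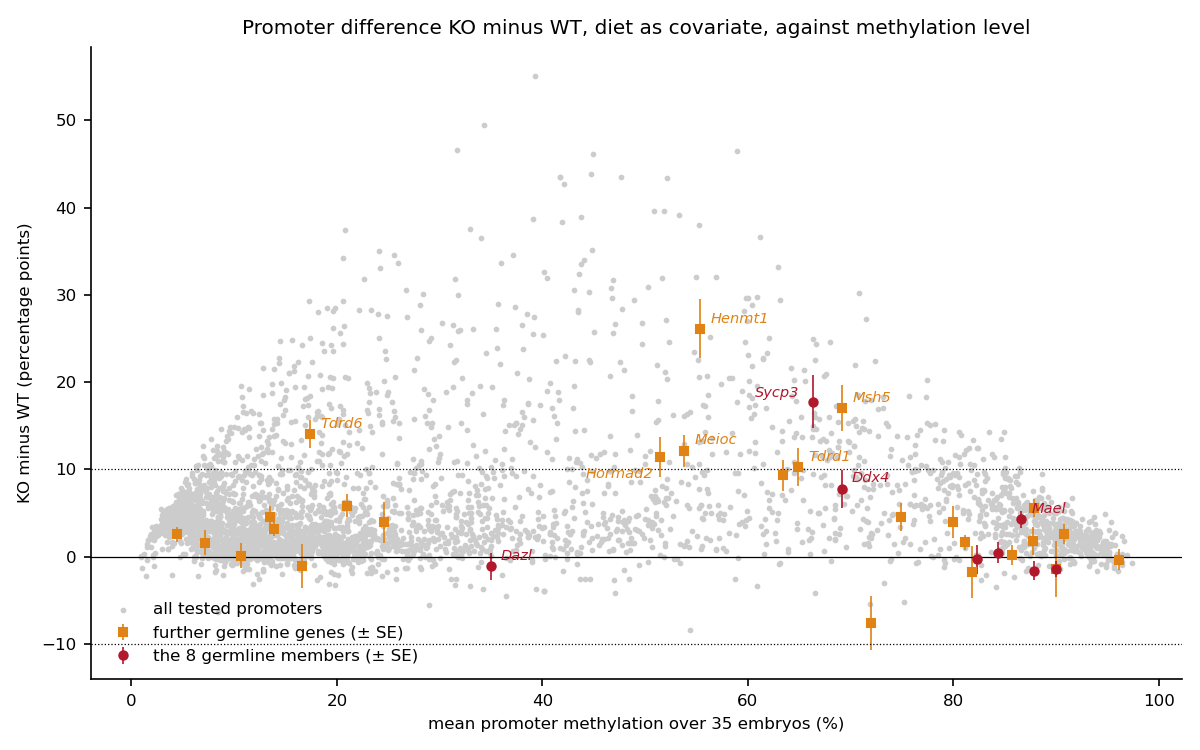
KO minus WT difference in promoter methylation (percentage points, y axis) against the mean level over 35 embryos (%, x axis) for all 3887 tested promoters (grey), 26 further germline genes (orange squares) and the 8 members (red circles), with bars for SE and dotted lines at 10 points. Sycp3 stands at +17.8 points, while 5 members over 80% lie below 5 points.

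Litters allow KO and WT siblings to be compared. 8 litters held both genotypes, and Sycp3 was higher in KO in 8 of them, by 2.49 to 37.5 points (median 18.0). With the 3 libraries left out, 6 litters remained, and Sycp3 was higher in KO in 6 of them, by 14.6 to 37.5 points. At Ddx4 this was so in 7 of 8 litters (-7.93 to 15.0 points), the exception being a litter of the 0.1 ppm diet, and at Mael in 6 of 8 (-1.72 to 9.19 points). KO was higher in 5 of 6 litters at Ddx4 and in 4 of 6 at Mael without these libraries, over the same ranges. Sycp3 lies on the chromosome of Tet1, 25.6 Mb from it, and sequence inherited with the targeted allele and the loss of TET1 cannot be told apart there. No CpG of any member had reads in at least 80% of KO libraries and in no WT library. This count would miss a base change that is read as an unmethylated CpG, as described for Asz1 below.

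**Figure D3:**
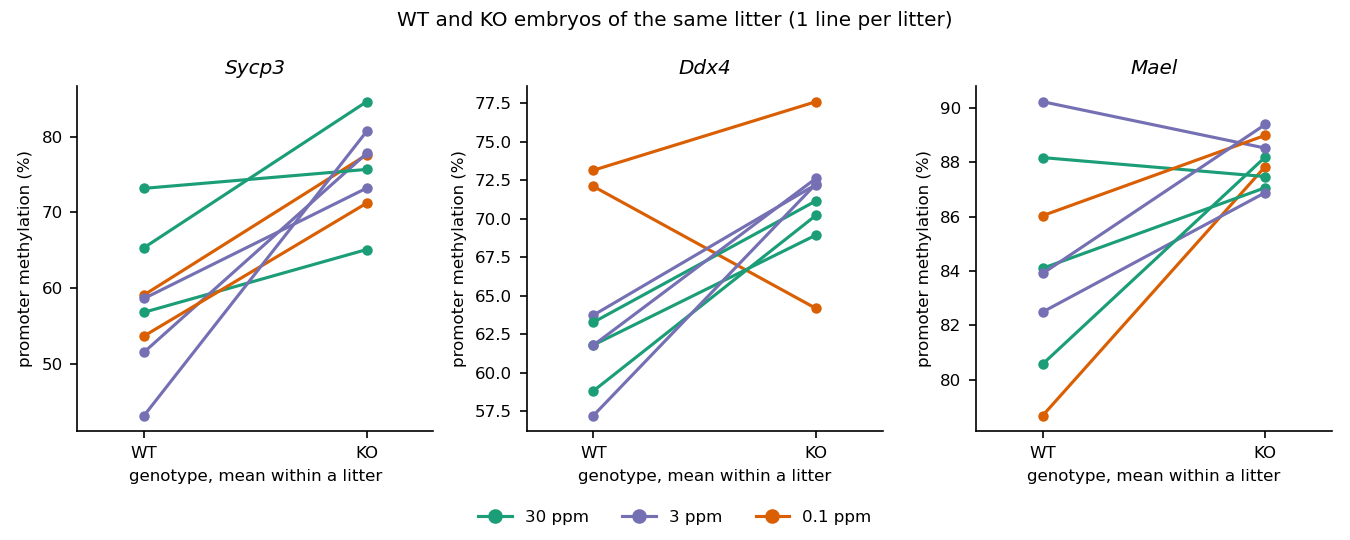
Promoter methylation (%, y axis, scaled separately per gene) of WT and KO embryos of the same litter (mean per genotype, 1 line per litter) at Sycp3, Ddx4 and Mael, coloured by diet. Sycp3 rises from WT to KO in 8 of 8 litters, while Ddx4 and Mael fall in 1 and 2 of them.

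Against HET embryos, KO embryos had a difference of +13.5 points at Sycp3 (SE 2.92, adjusted p = 7.69e-05 by the quasi-binomial test), which was the 1 member called of 8, where 12% of all promoters were. Without the 3 libraries it was +14.8 points (adjusted p = 1.25e-06). Mael differed by +2.33 points (adjusted p = 0.0311). Between HET and WT embryos no member was called, and 0.0257% of all promoters were. Ddx4 had +5.92 points (unadjusted p = 0.00292, adjusted p = 0.164) and Mael +1.95 (unadjusted p = 0.00783, adjusted p = 0.232), the 2 members of 8 with an unadjusted p under 0.05, as 12.1% of all promoters had. Without the 3 libraries the HET minus WT difference at Ddx4 was +6.37 points with an adjusted p of 0.0199. Sycp3 had +4.31 points (SE 3.34, adjusted p = 0.795), or +6.40 without the 3 libraries (adjusted p = 0.296), so that its level in HET was not told apart from that in WT.

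Within single diets and with all libraries, Sycp3 had the largest difference of the members, on 30 ppm only slightly above that of Ddx4. On 3 ppm Sycp3 rose by 26.7 points in KO (SE 3.87, adjusted p = 1.94e-04 by the quasi-binomial test) and Ddx4 by 11.7 (SE 2.06, adjusted p = 4.36e-04), which made 2 of 6 members called, beside 18.5% of all promoters. On 30 ppm 0 of 8 were called, beside 6.32% of all. There Sycp3 had +9.03 points (SE 6.20, adjusted p = 0.262), and +4.88 without WT replicate 1, and Ddx4 +8.30 (SE 2.41, adjusted p = 0.0596). 2 of the 3 libraries against their label belong to this diet, and without them Sycp3 had +16.3 points (adjusted p = 0.00636) and was called. They hold the highest WT and the lowest KO value of Sycp3, so this call is no independent support. Without KO replicate 1 alone it had +12.3 points (adjusted p = 0.0554). On 0.1 ppm, with 2 WT embryos, Sycp3 had +15.2 points (SE 5.55, adjusted p = 0.0340) and was the 1 of 6 members called, beside 15% of all. The call on 0.1 ppm was lost with 1 WT embryo left, when the library against its label was removed (+12.5 points, adjusted p = 0.155), and with litter as a block (+17.9 points, adjusted p = 0.0733). Mael had +6.79 points on 0.1 ppm (SE 2.16, adjusted p = 0.0124), under the minimum for a call. Without the library against its label, 1 WT embryo (78.7%) was left, so that the spread came from the KO embryos, and the difference at Mael of +10.5 points (adjusted p = 0.00295) was called while that at Sycp3 was not. Ddx4 had +0.31 points there (SE 4.70).

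Maternal folic acid moved none of the members past the test. Diets were compared within each genotype, and the diet dependence of the KO effect was tested as an interaction, which gave 57 tests of member promoters. By the quasi-binomial test 0 were called, 6 had an unadjusted p under 0.05 and the lowest adjusted p was 0.734, beside 4.72% of all promoter tests in these comparisons with such a p. With the limma-style test 0 were called and 6 of 44 had an unadjusted p under 0.05. Of all promoters 0% were called in each of these 8 comparisons, except 0.1 against 3 ppm in HET, with 0.0748%. Ddx4 in WT brain was 72.6% ± 0.74 on 0.1 ppm (SD, n = 2) and 61.6% ± 3.36 on 3 ppm (n = 4), a difference of +11.0 points (SE 2.54, unadjusted p = 0.00751, adjusted p = 0.819). Without the library against its label, whose embryo was also labelled inHB, 1 WT embryo was left on 0.1 ppm, and the difference was +10.5 points. The KO minus WT difference at Ddx4 on 0.1 ppm less that on 3 ppm was -11.4 points (SE 4.63, unadjusted p = 0.00617, adjusted p = 0.895), with KO levels of 72.9% ± 6.27 (n = 5) and 73.3% ± 2.84 (n = 5). The same contrast of 30 with 3 ppm at Sycp3 was -17.7 points (SE 7.23, unadjusted p = 0.0455, adjusted p = 0.757), and -10.4 points without the libraries against their label (adjusted p = 0.993). These are values that did not pass.

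Along Dazl, the methylation ended abruptly. Divided at 500 bases after the first start, a point chosen after the values were seen, 32 CpGs from 509 bases before to 488 after the start had WT levels of 35 to 98.3% (median 84.6%), and 36 CpGs from 507 to 771 bases after it 0.154 to 14.9% (median 1.11%). In the run shown above, WT levels went from 42.14% at the CpG 488 bases after the start to 14.7% at 507, 14.9% at 517 and 2.19% at 529. The methylated block had 80.7% ± 3.88 in WT, 79.7% ± 3.01 in HET and 77.8% ± 4.15 in KO, and the unmethylated block 1.66% ± 0.36, 1.44% ± 0.34 and 1.29% ± 0.39. KO was higher at 24 of the 68 CpGs. The fall lay between the same CpGs in all 3 genotypes, with 1 of the annotated Dazl starts, 744 bases after the first, in the unmethylated block.

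**Figure D4:**
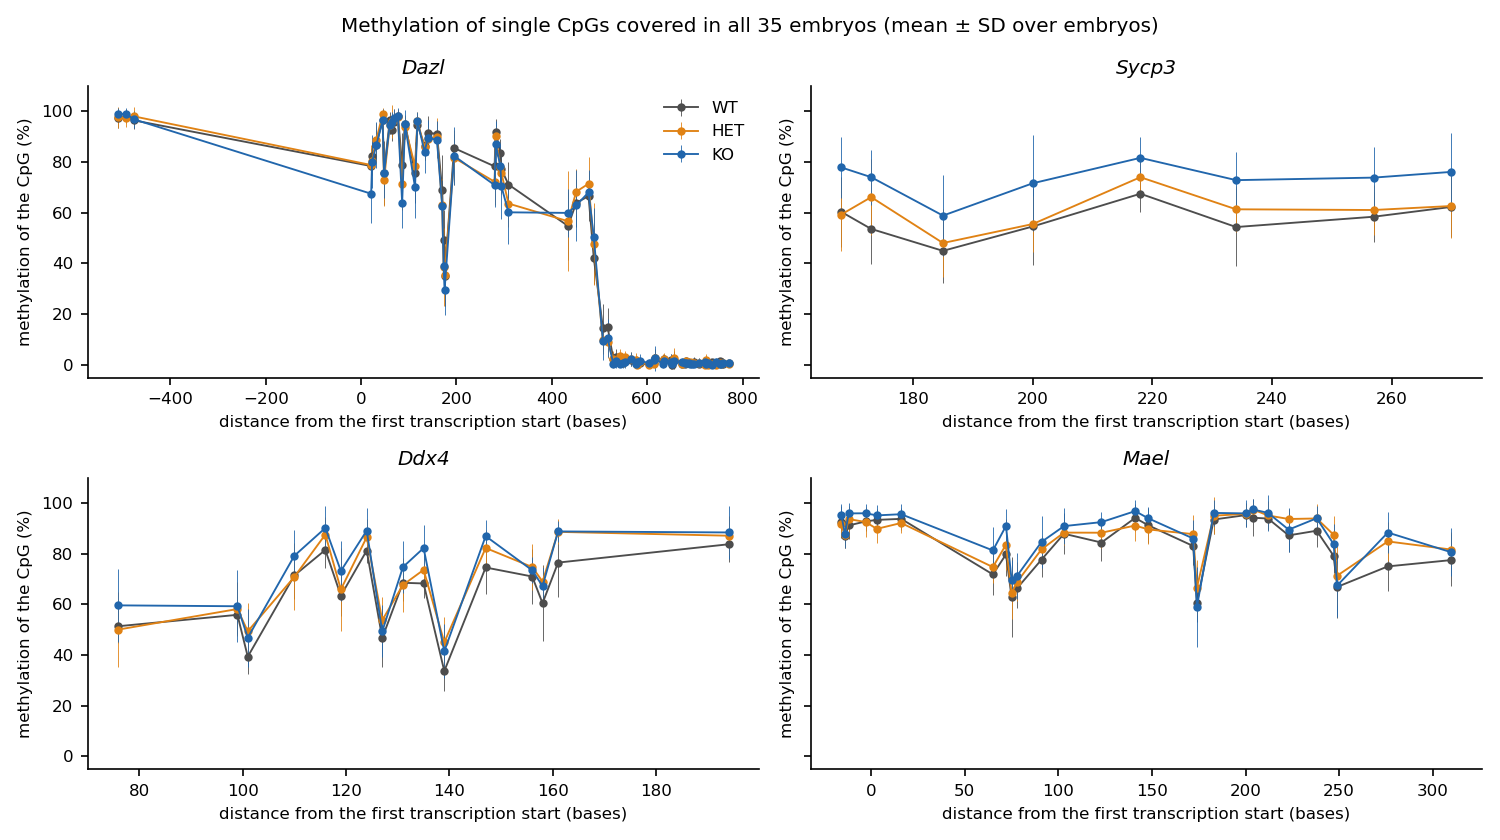
Methylation (%, y axis) of single CpGs against their distance from the first transcription start (bases, x axis) at Dazl, Sycp3, Ddx4 and Mael, as mean ± SD over WT, HET and KO embryos. At Dazl the 3 genotypes fall together from 42.14% at 488 bases (WT) to 2.19% at 529, and at Sycp3 KO lies above WT at 8 of 8 CpGs.

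Within the methylated promoters single CpGs differed widely. WT levels ran from 33.7 to 83.7% over the CpGs of Ddx4, from 60.6 to 95.2% at Mael, from 41.18 to 96.99% at Slc25a31 and from 52.3 to 96.5% at Hormad1. At Asz1 the CpG 26 bases before the first start, the eighth in the printed run, had 2 methylated of 808 reads over 34 libraries and 0 to 3.03% in each. The CpG 4 bases downstream of it had 759 methylated of 792 reads. That CpG and 13 more read in most libraries averaged 88.3 to 98.3% in WT. As a base change in the strain would be read in the same way, an unmethylated CpG and the absence of a CpG cannot be told apart here, nor can an effect of read mapping, and the value may not be a methylation level.

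Gene bodies were methylated too. Sycp1 had 84.9% ± 2.33 in WT and 87.0% ± 5.24 in KO over 5 body CpGs, and Slc25a31 93.9% ± 2.13 and 94.6% ± 2.21 over 8. Neither was called between KO and WT (9.55% of 8900 bodies were), between HET and WT (0.157%) or between KO and HET (5.42%). At Slc25a31, with 93.9% in WT, a rise of 10 points had no room. Slc25a31 had +2.26 points between KO and HET (adjusted p = 0.0286 by the quasi-binomial test). From each embryo's own CpGs, medians were 89.0% at the Asz1 body, 93.0% at Stk31, 96.0% at Hormad1 and 85.0% at Ddx4, the last from 11 embryos.

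A list of 61 further germline genes was read in the same way. 41 had at least 3 shared promoter CpGs, with WT levels from 0.698 to 96.1% (Tuba3b) and a median of 44.3%: 13 were over 80%, 18 under 20% and 10 between. Of the 26 tested, 6 were called in KO against WT, all higher, beside 16.1% of all promoters, and 21 of 26 were higher, beside 92.4% of all, with a median of 3.54 points against 3.63. By level, 5 of 10 between 20 and 80%, 1 of 7 under 20% and 0 of 9 over 80% were called, beside the 30.2%, 9.33% and 3.66% of all promoters at those levels. These counts show nothing particular to germline genes. By role, calls fell on 3 of 10 genes of the piRNA pathway, 1 of 5 of the chromosome axis and synapsis, 2 of 6 of recombination and meiotic entry, and 0 of 5 of germ cell RNA and development.

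The piRNA methyltransferase gene Henmt1 rose most, from 41.82% ± 7.01 in WT (n = 9) to 67.9% ± 9.72 in KO (n = 16), with HET at 47.4% ± 7.16 (n = 10) and a difference of +26.1 points (SE 3.41, adjusted p = 1.01e-09 by the quasi-binomial test). Tdrd6, a tudor protein of germ cell granules, rose from 10.9% ± 3.80 to 24.9% ± 4.45. Msh5, which acts on meiotic crossovers, rose by 17.0 points (SE 2.62) over 3 CpGs, Meioc, which keeps germ cells in meiosis, by 12.2 (SE 1.83), and Hormad2, the axis protein related to Hormad1, by 11.4 (SE 2.32). Hormad2 was at 44.3% ± 6.72 in WT where Hormad1 was at 83.9%. No gene of this list was called lower in KO. Sycp2, a lateral element protein named after its value was seen, fell by 7.61 points (SE 3.13, adjusted p = 0.0213 by the quasi-binomial test), less than a call requires. The rise of Meioc was +3.50 points, not called, with CpGs within 500 bases of a start, and that of Msh5 +5.62 points with each embryo's own CpGs, and that of Hormad2 +9.47 points, not called, without WT replicate 3 of 30 ppm.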

How the data were processed

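Single E11.5 embryo brains were profiled by oxidative bisulfite RRBS after MspI and TaqI digestion. Per the submitters' processing notes and the study's methods, the authors trimmed reads with Trim Galore (0.6.10), aligned them to mm10 with Bismark (0.24.1), deduplicated them by molecular identifier with UMI-tools and extracted calls with Bismark. Each deposited table gives per CpG the methylated fraction, as the authors computed it, and the count of covering reads. How both strands were joined is not given in the sources used here. The lowest deposited read count was 2, and fraction times count was a whole number throughout, which recovered the methylated reads. 9 deposited lists of differentially methylated regions hold the authors' own comparisons and were not used.

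Gene models were GENCODE vM21 (mm10), with positions counted from 1. A promoter spans 1 kb to either side of any start. Reads were summed per embryo over CpGs with 5 or more reads in each of the 35 embryos, at least 3 per region. Regions whose levels had an SD under 2 points over the embryos compared were not tested. All 8 readable members passed this in the comparisons over all diets, and 8, 6 and 6 on 30, 3 and 0.1 ppm. Methylated and unmethylated reads were fitted by a quasi-binomial logistic model with dispersion moderated by the squeezeVar method of limma, with 1 as its floor (the quasi-binomial test, two-sided F test, numpy 2.4.6 and scipy 1.17.1). P-values were adjusted by Benjamini-Hochberg over all regions of a comparison, and the program was tested on simulated data. Differences and their SEs come from least squares on levels per embryo, each embryo weighted equally, with diet as a covariate where diets were joined. The p-values come from the quasi-binomial fit, in which embryos with more reads weigh more. A p-value therefore cannot be derived from the SE beside it. The limma-style alternative weights each CpG equally. P-values measure the spread between these embryos, some of which share a litter. Wilson intervals (95%) cover counting error only, and are too narrow where a molecule is counted at several CpGs.

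The authors excluded HET replicate 2 of 0.1 ppm, which was left out here too. The study paired littermates. Deviations of littermates correlated with a median r of 0.0241 across promoters (35 pairs, 8 over 0.1), and litter entered as a block in an alternative. The members, the gene lists and the 3 libraries set apart were chosen with earlier results of these data known, and the Tet1 CpG was the one that best divided the remaining KO and WT libraries. All 10 members are named, with the 5 largest called rises and falls of the further germline list and the highest neural and housekeeping promoters. The study's sample list gives KO replicate 1 of 30 ppm as HET. Its deposited label, KO, was followed here, and values without it are given.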

Additional observations from a re-analysis of the deposited data

Results flagged for a closer look

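Of 50 groups of 4 to 6 embryos, from 5 combinations of genotype and diet at 10 regions, examined for a value apart from the rest, 3 held such a value, and about 1 in 20 is marked by chance. Mael in HET replicate 2 of 30 ppm was 82.92%, below the next embryo of its group at 86.0% (568 reads). The same embryo was high at Sycp3, with 69.77% where the next was 60.2% (86 reads). Mael in KO replicate 2 of 3 ppm was 83.59%, below the next at 88.5% (457 reads). None of these libraries went against its label at Tet1.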

How the results depend on the processing

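Over all settings other than the main one, 528 of 548 counts of called members stayed the same and 20 moved, and of 3423 differences 3385 kept their call status, 32 lost a call and 6 gained one. The sign changed in 130 differences, and in 0 of those that were called. With a coverage of at least 10 reads, neither Sycp3 nor Ddx4 could be tested, and the members called fell to 0 for KO against WT over all diets, KO against HET, and KO against WT on 3 and 0.1 ppm. A minimum difference of 5 points called 2 over all diets and 2 on 0.1 ppm, and one of 20 points called 0 over all diets, 0 against HET, 1 on 3 ppm and 0 on 0.1 ppm. On 30 ppm, 1 member was called in place of 0 with CpGs shared within the comparison (Sycp3, +13.4 points, adjusted p = 0.0451) and 1 without the 3 libraries against their label. On 0.1 ppm, 0 were called in place of 1 with CpGs shared within the comparison (Sycp3, +8.21 points), with each embryo's own CpGs (+8.04), with the limma-style test (adjusted p = 0.0532) and with litter as replicate block (adjusted p = 0.0733). Leaving out 1 embryo at a time gave 0 to 1 called on 0.1 ppm, the call at Sycp3 being lost without WT replicates 1 or 2 or KO replicates 1, 4 or 5 of that diet. The block changed no other call of a member, and it could not be fitted for diets within a genotype. Among all promoters, calls on 30 ppm ranged from 0 to 690 (240 as reported above). Among the 8 promoters depth limits Sycp3 most, with 65 reads, summed over its CpGs, in the shallowest embryo.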

Other observations

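All embryos carry a phenotype label (norm, NTD for neural tube defect, or inHB, given as brain malformation in the study's sample list). The KO embryos were divided by it. Sycp3 was 77.1% ± 4.46 (SD, n = 7) in norm, 74.8% ± 7.04 (n = 5) in NTD and 69.7% ± 10.3 (n = 4) in inHB embryos, and without the library against its label inHB embryos had 73.6% ± 8.07 (n = 3). Ddx4 was 70.3% ± 3.28, 74.0% ± 4.67 and 71.6% ± 6.20 in the same order, and Mael 88.1% ± 2.25, 88.6% ± 1.15 and 88.3% ± 2.06. The 3 groups overlapped at each of these genes, and no test was run. Dazl was 35.5% ± 2.25 in norm, 34.8% ± 4.84 in NTD and 31.6% ± 5.25 in inHB embryos. Without the library against its label, inHB embryos had 29.0% ± 1.31 (n = 3) at Dazl, lower than norm embryos, which was not tested either. In 8 female and 8 male KO embryos, Sycp3 was 70.9% ± 8.20 and 78.1% ± 3.75, Dazl 36.63% ± 3.37 and 32.0% ± 3.42, and Hormad1 86.1% ± 1.74 and 82.7% ± 2.36, also untested. Without the library against its label, 7 female embryos had 72.8% ± 6.76 at Sycp3, 36.25% ± 3.45 at Dazl and 86.3% ± 1.79 at Hormad1.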
